A study of Sus scrofa with 9 samples.

Results

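The homologous recombination and Fanconi anaemia repair genes were followed through 9 RNA libraries of porcine valvular interstitial cells (PVICs), the fibroblast-like cells that fill the aortic valve leaflet. The set was taken as the gene rows whose symbol is one of 41 listed names. Of these, 39 were found among the 19535 gene rows and all 39 were among the 13662 genes with enough reads to test, while XRCC3 and FANCE were not analysed here. The cells came from wild type pigs aged 4 to 5 months and were grown in DMEM with serum. The control group (NC, 3 libraries) stayed in DMEM, the OIM group (3 libraries) was kept in a calcification-inducing medium with 2 mmol/L phosphate, 50 µg/mL ascorbic acid and 1e-07 mol/L insulin, and the bFGF group (3 libraries, BFGF in the labels) received the same OIM together with 50 ng/mL basic fibroblast growth factor. The labels give 3 days of treatment for every group, whereas the study's methods describe a shorter one. No source says whether the 3 libraries of a group came from separate pigs or dishes, so the p-values measure the spread between these libraries, which may be technical.

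Homologous recombination repairs a broken chromosome by copying the intact sister chromatid. The broken ends are first trimmed back to single-stranded DNA, BRCA2 and its partners prepare it to invade the matching strand, and the joint molecules that form are then dissolved or cut. The Fanconi pathway detects strands that are chemically linked together: its core complex attaches ubiquitin to FANCD2 and FANCI, nucleases release the link, and recombination finishes the repair. Many of these genes are known to be transcribed mainly as cells prepare for and pass through S phase.

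Reads on genes ranged from 57075793 to 64723837 in the NC libraries, from 57682710 to 67371523 in the OIM libraries and from 46773376 to 48270827 in the bFGF libraries. The 39 genes had between 77 and 6535 reads in a library. Levels are given as CPM, the reads of a gene scaled to the library total after TMM normalization. The fibroblast and interstitial cell markers were high in all libraries, with a summed level of 64867 to 70275 CPM in NC, 61460 to 64366 in OIM and 37602 to 37956 in bFGF. Of the 10 markers, 2 were called higher and 4 lower with bFGF than with OIM, beside 17.7% and 18.4% of all genes tested. Among those lower, COL1A1 and COL1A2 had means of 25047 and 17751 CPM in OIM and 9886 and 8849 in bFGF. Of 8 endothelial markers, 6 were called higher and 0 lower with bFGF than with OIM, beside the same shares of all genes tested. The summed level of the 8 was 72.6 to 74.4 CPM in NC, 86.8 to 87.9 in OIM and 167 to 177 in bFGF. Most of that sum was ERG, whose mean was 66.8 CPM in OIM and 137 in bFGF. The other 5 called markers had means of 11.8 and 20.7 CPM (PECAM1), 5.80 and 8.24 (CDH5), 0.740 and 1.52 (TEK), 0.169 and 1.17 (KDR) and 0.060 and 0.336 (CLDN5) in OIM and bFGF. VWF (0.303 and 0.228 CPM) and TIE1 (1.85 and 2.03 CPM) were not called. The leukocyte markers summed to 12.9 to 16.4 CPM in NC, 14.1 to 15.9 in OIM and 8.57 to 9.29 in bFGF, mostly CD14. Of the 5 that could be tested, 0 were called higher and 1 lower with bFGF than with OIM, namely CD14 (log2 fold change -0.81). CD3E was at 0 in all 9 libraries. The part of these markers in the results was not tested.

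The comparison of bFGF with OIM asks what the growth factor did to the repair genes in the calcifying medium. Of the 39 genes, 29 were higher with bFGF and 0 were lower, with a gene called when edgeR's quasi-likelihood test gave an adjusted p no larger than 0.05 and the log2 fold change reached 0.5 in size. Among all genes tested, 17.7% were called higher and 18.4% lower. The median log2 fold change of the 39 genes was 1.35, that is 2.55-fold, beside a median of 0.00 over all genes tested (the bFGF libraries set against OIM). Scaling by library totals in place of TMM shifted all genes tested by a median of 0.22 on the log2 scale, with 27.3% then called higher and 12.4% lower, and 33 of the 39 genes were then higher and 0 lower. Of the called genes, 5 rose more than 4-fold, 11 rose between 3-fold and 4-fold, 6 between 2-fold and 3-fold, and 7 less than 2-fold. By adjusted p alone, 35 were higher and 0 lower (33.8% and 33.5% of all genes tested). In 35 of the 39 genes the 3 bFGF libraries all lay above the 3 OIM libraries, and in 0 all lay below them, against 36.3% and 35.8% of all genes tested.

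**Figure D1:**
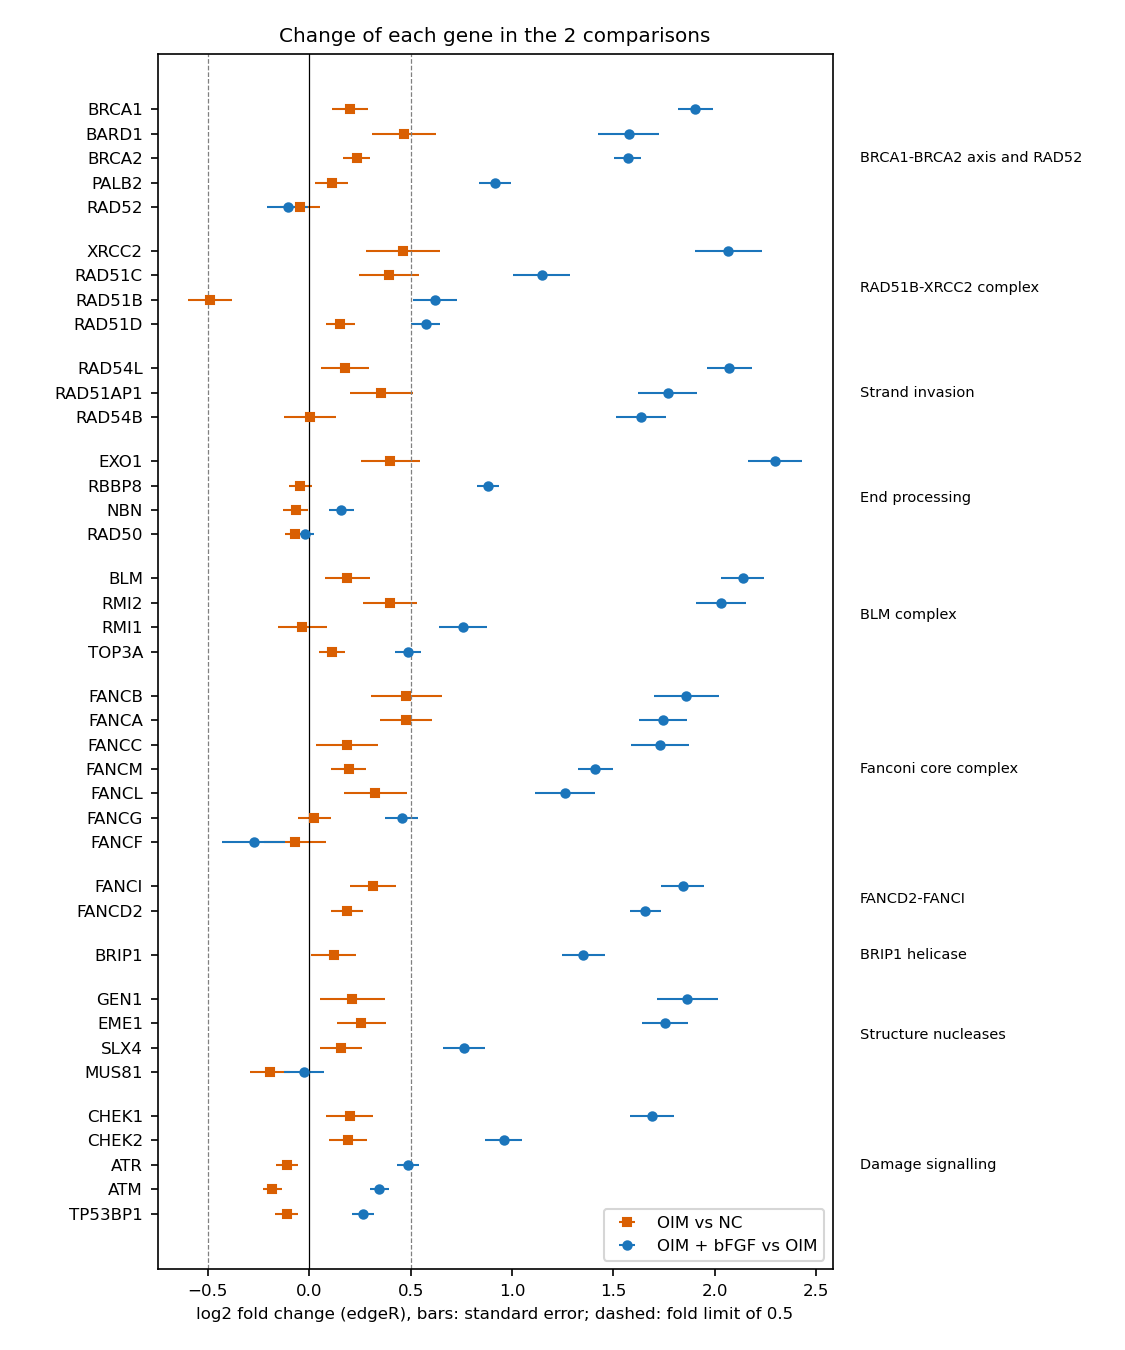
Log2 fold change (edgeR, x axis) of each of the 39 genes with its standard error as a bar, for OIM against NC (squares) and for OIM with bFGF against OIM (circles), genes grouped by role; dashed lines mark the fold limit of 0.5. The circles of 29 genes lie past the limit, with EXO1 the farthest at 2.30 and FANCF the lowest at -0.27, while the squares stay between -0.49 and 0.48.

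Together, the 39 genes took 0.141 to 0.144% of the gene reads in the bFGF libraries, 0.0588 to 0.0614% in NC and 0.0571 to 0.0690% in OIM. Their summed level was 628 to 643 CPM in the NC libraries, 607, 713 and 618 CPM in OIM libraries 1 to 3, and 1277 to 1295 CPM in the bFGF libraries. OIM library 2 stood above the other two. It had the highest of the 3 OIM values in 33 of the 39 genes (84.6%), against 36.1% of all genes tested, and its median ratio to the mean of the other two OIM libraries was 1.15 over the 39 genes and 0.999 over all genes tested. The same library was higher in the DNA replication list, by a median of 0.34 on the log2 scale, and in the mitosis list, by 0.40. Without it, 32 of the 39 genes were called higher with bFGF, and the median log2 fold change was 1.48.

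The genes that rose most came from different steps of the pathway. EXO1, an exonuclease that lengthens the single-stranded end (chr10:15317555-15360593, plus strand, Sscrofa11.1), was at 5.45, 5.51 and 5.41 CPM in NC, 5.48, 9.72 and 6.27 in OIM, and 34.3, 36.6 and 35.2 in bFGF. The bFGF libraries were far above the others, and OIM library 2 was the highest of the remaining 6. The log2 fold change of EXO1 over OIM was 2.30 (SE 0.13, adjusted p = 6.00e-12), and it was 2.61 without OIM library 2. BLM, the helicase altered in Bloom syndrome (chr7:53317515-53412649, plus strand), was at 9.63, 8.55 and 9.49 CPM in NC, 8.97, 13.0 and 9.40 in OIM, and 43.1, 45.7 and 49.8 in bFGF. The bFGF libraries again did not overlap the other 6, and the log2 fold change was 2.14 (SE 0.11, adjusted p = 5.07e-13).

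RAD54L, a motor protein of strand invasion (chr6:165156833-165184641, minus strand), was at 4.83, 5.36 and 5.21 CPM in NC, 5.09, 7.06 and 5.16 in OIM, and 23.1, 24.6 and 25.5 in bFGF. Its log2 fold change was 2.07 (SE 0.11, adjusted p = 1.65e-12). XRCC2, a subunit of the complex that also holds RAD51B, RAD51C and RAD51D, started from the lowest counts of the leading genes, at 1.63, 1.27 and 2.03 CPM in NC and 2.05, 2.72 and 2.00 in OIM. With bFGF it was at 9.16, 9.88 and 9.41 CPM, above all other libraries, and its log2 fold change was 2.07 (SE 0.16, adjusted p = 8.10e-10). RMI2, a small subunit of the complex around BLM, was at 4.18, 4.17 and 4.80 CPM in NC, 4.89, 7.38 and 4.99 in OIM, and 24.1, 23.8 and 22.9 in bFGF (log2 fold change 2.03, SE 0.12, adjusted p = 1.36e-11). In each of these genes every bFGF library was above the NC and OIM libraries.

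**Figure D2:**
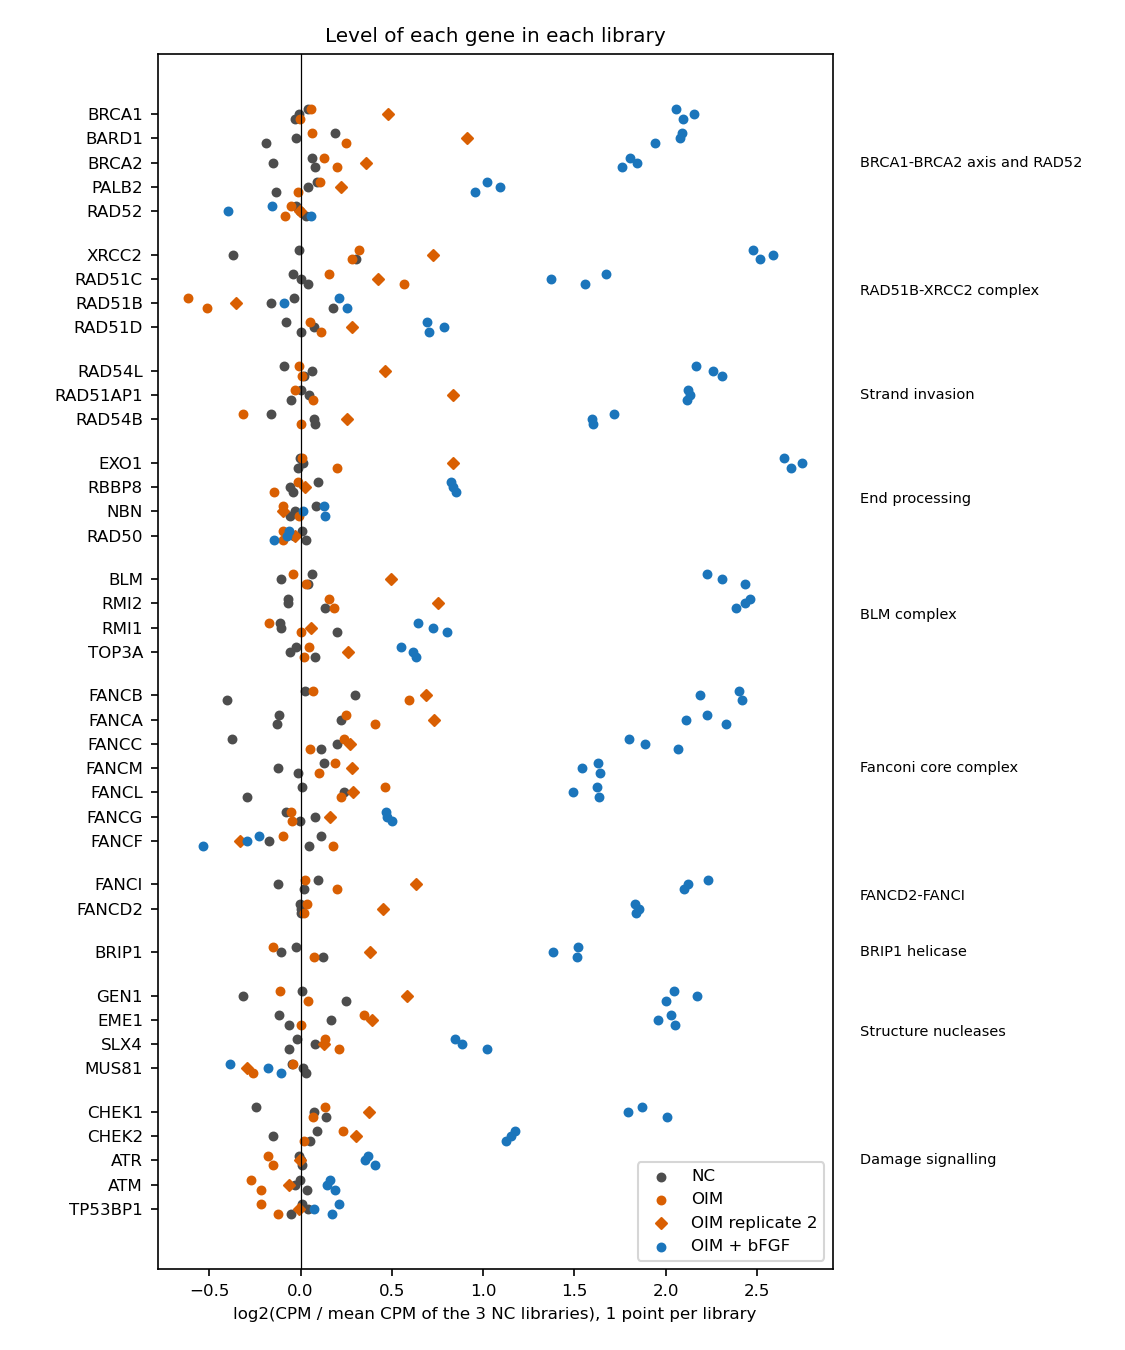
Level of each of the 39 genes in each of the 9 libraries, 1 point per library coloured by group, as the log2 of its CPM over the mean CPM of the 3 NC libraries (x axis), with OIM library 2 drawn as a diamond. The bFGF points lie apart on the right in most rows, the diamond is the rightmost OIM point in 33 rows, and in the rows of RAD50, RAD52, FANCF, MUS81, RAD51B and NBN the bFGF points do not all lie to the right of the others.

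The start regions of the genes were read for a short sequence bound by E2F factors, which drive S phase genes. Windows from 250 bases before to 50 bases after the RefSeq start were taken from Sscrofa11.1. They were searched on both strands for the octamers TTTCCCGC, TTTCGCGC, TTTGCCGC and TTTGGCGC, no pair of which can match at the same position of one strand. A match was present in 7 of the 39 genes (17.9%) and in 572 of 13637 windows of genes tested (4.19%). The shorter motif CCAAT was present in 20 of the 39 windows (51.3%) and in 35.6% of those of all genes tested, and TTTGAA in 2 (5.13%) and in 11.8%. A match is a description of the letters and does not show that a factor binds. The 7 windows are printed below because they are the genes with a match; each is given on the strand of its gene, 5′ to 3′, with the octamer in capitals (its reverse complement where the match was on the other strand), and none but RAD51C lies within another gene's annotation.
BARD1 (chr15:117135898-117135925, minus strand): cgccggcactTTTGGCGCgtttcggccc
BRCA2 (chr11:8805916-8805943, plus strand): agagccggctTTTGGCGCgagcgtctga
RAD51C (chr12:34975866-34975893, plus strand, inside the TEX14 annotation): aacgtactacTTTCCCGCagtgctgcaa
RMI1 (chr10:30975515-30975542, minus strand): gcatgactgcGCGGCAAAtctggcggga
RMI2 (chr3:31814837-31814864, minus strand): atcaaagttgGCGGGAAAgcggcggggc
FANCC (chr10:26796523-26796550, plus strand): tcgtccgaatTTTCCCGCgatgccgcgg
GEN1 (chr3:120097314-120097341, minus strand): cgttcggagtTTTCGCGCcactggagcg

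The octamer lay in the first exon of RMI1 and RMI2 and before the annotated start in BARD1, BRCA2, RAD51C and GEN1, at 26, 24, 73 and 26 bases upstream. In FANCC it began 13 bases upstream. All 7 genes were called higher with bFGF than with OIM, with log2 fold changes from 0.76 (RMI1) to 2.03 (RMI2) and a median of 1.57. Of the 32 genes without a match, 22 were called higher and 10 were not called, with a median of 1.11. EXO1 and BLM, the 2 genes with the largest changes, had no match in their windows.

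BRCA1, BARD1, PALB2, BRCA2 and RAD52, which prepare the broken end for strand invasion, were mostly among the genes that rose, with 4 of 5 called and a median log2 fold change of 1.57. BRCA1, a ubiquitin ligase that promotes end trimming and recruits the loading machinery, was at 21.3, 20.6 and 20.3 CPM in NC, 21.6, 29.0 and 20.7 in OIM, and 86.3, 92.5 and 88.6 in bFGF. The bFGF libraries did not overlap the rest, and the log2 fold change was 1.90 (SE 0.085, adjusted p = 1.08e-13). BARD1, the obligate partner of BRCA1, was at 6.44, 5.54 and 4.96 CPM in NC, 5.90, 10.6 and 6.70 in OIM, and 24.0, 23.9 and 21.7 in bFGF, a log2 fold change over OIM of 1.57. OIM library 2 was the highest of the 6 NC and OIM values, and each bFGF library was above it. PALB2, the bridge between BRCA1 and BRCA2, rose less, from 15.9 ± 1.29 to 29.9 ± 1.40 CPM (SD, n = 3; log2 fold change 0.91), and BRCA2, which prepares the single strand for invasion, rose from 27.9 ± 2.32 to 83.1 ± 2.36 CPM (log2 fold change 1.57).

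RAD52, an annealing protein, was the exception in this set. It ranged from 11.3 to 11.8 CPM in NC, from 10.9 to 11.5 in OIM and from 8.78 to 12.0 in bFGF. The groups overlapped, and the log2 fold change was -0.11 (SE 0.10, edgeR adjusted p = 0.364). Its exons share 24.6% of their bases with WNK1 on the opposite strand, a gene at 547 CPM in OIM and 484 CPM in bFGF. Which strand was counted is not given in the sources used here, so reads of RAD52 and WNK1 cannot be told apart there.

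RAD51B, RAD51C, RAD51D and XRCC2, which form one complex that supports strand invasion, were all called higher with bFGF (4 of 4, median log2 fold change 0.88), but by unequal amounts. XRCC2 rose by 2.07 on the log2 scale, RAD51C by 1.15, RAD51B by 0.62 and RAD51D by 0.57. RAD51B (chr7:91592413-92301383, plus strand) also had another pattern across the 3 groups. It was at 13.6, 12.5 and 15.8 CPM in NC, 9.11, 10.9 and 9.79 in OIM, and 16.1, 13.1 and 16.7 in bFGF. The OIM libraries were below all 6 others, while the NC and bFGF libraries overlapped. For RAD51B the log2 fold change was -0.49 for OIM against NC (SE 0.11, adjusted p = 0.00399), short of the fold limit, and 0.13 for bFGF against NC (adjusted p = 0.273). Leaving out 1 library moved the OIM against NC value past the limit in 3 of the 9 cases, those without NC library 1, NC library 2 or OIM library 2, at -0.51 to -0.57. The level of XRCC2 per kilobase of exon relative to RAD51B moved from 1.37 to 1.67 in the OIM libraries to 3.78 to 5.04 in the bFGF libraries.

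The genes of strand invasion itself, RAD54L, RAD54B and RAD51AP1, all rose (3 of 3 called, median log2 fold change 1.77). Besides RAD54L, RAD51AP1, which stimulates strand pairing, went from 7.53 ± 2.65 CPM in OIM to 25.8 ± 0.128 in bFGF (log2 fold change 1.77). RAD54B, a relative of RAD54L, went from 4.91 ± 0.950 to 15.3 ± 0.720 CPM (log2 fold change 1.64).

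The genes of end trimming divided. EXO1 and RBBP8 (CtIP, the nuclease cofactor that starts trimming) were called, RBBP8 with a rise from 35.9 ± 2.12 to 66.1 ± 0.615 CPM (log2 fold change 0.88). RAD50 and NBN, which form the break-sensing complex with MRE11, were not. RAD50 was at 57.6, 55.7 and 58.3 CPM in NC, 53.6, 56.1 and 53.6 in OIM, and 54.7, 54.4 and 51.7 in bFGF. The bFGF and OIM libraries overlapped, while each bFGF library was below each NC library. The log2 fold change against OIM was -0.02 (SE 0.046, edgeR adjusted p = 0.678). NBN went from 29.0 ± 1.02 to 32.4 ± 1.49 CPM, a log2 fold change of 0.16 that passed on adjusted p alone (0.0269). Relative to NBN, the level of EXO1 per kilobase was 0.101 to 0.179 in the OIM libraries and 0.542 to 0.626 in the bFGF libraries, whereas NBN relative to RAD50 was 0.506 to 0.563 and 0.564 to 0.645.

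The complex that dissolves joined DNA molecules changed unevenly as well, with 3 of 4 genes called. BLM and RMI2 rose 4.40-fold and 4.08-fold. RMI1, the scaffold of the complex, rose from 4.83, 5.66 and 5.44 CPM in OIM to 8.50, 9.01 and 9.48 in bFGF (log2 fold change 0.76). TOP3A, the topoisomerase that passes one strand through the other, was at 30.9, 30.3 and 33.3 CPM in NC, 32.5, 37.8 and 31.9 in OIM, and 46.1, 48.3 and 48.8 in bFGF. The bFGF libraries were above all others, but the log2 fold change of 0.49 (SE 0.064, edgeR adjusted p = 1.33e-06) was just under the limit, and TOP3A was called at 0.59 without OIM library 2 and at 0.51 without bFGF library 1.

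The ratio of 2 genes within a library does not depend on how libraries are scaled, so 16 pairs of genes that work together, chosen with their values known, were compared per kilobase of exon. BLM stood at 0.304 to 0.380 of the TOP3A level in OIM and at 1.03 to 1.12 in bFGF, a 3.18-fold shift. RMI2 relative to RMI1 went from 0.834 to 1.19 in OIM to 2.20 to 2.59 in bFGF. BLM relative to RMI2 overlapped between the groups, at 0.993 to 1.06 and 1.01 to 1.22. With 3 libraries against 3 the two-sided exact permutation test cannot go below p = 0.1, so no pair could pass a threshold of 0.05 and the ratios are given as a description.

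**Figure D3:**
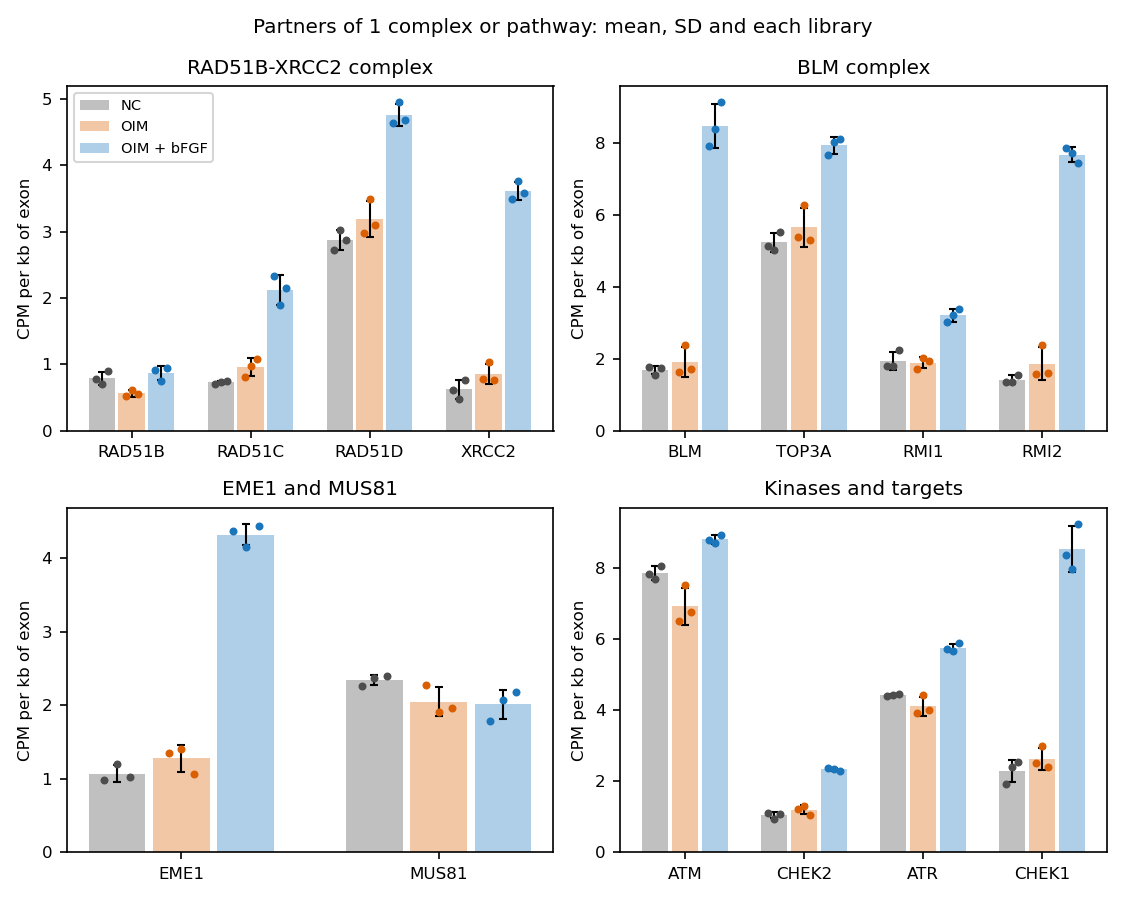
Level in CPM per kilobase of exon (y axis, from 0) of RAD51B, RAD51C, RAD51D and XRCC2, the BLM complex, EME1 and MUS81, and the damage kinases with their targets, in NC, OIM and bFGF; bars are means, error bars the SD of 3 libraries and points the libraries. XRCC2, BLM, RMI2, EME1 and CHEK1 step up with bFGF, while MUS81 stays near 2 CPM per kilobase in OIM and bFGF.

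Among the nucleases that cut joined molecules, 3 of 4 were called. EME1 and MUS81 work as one enzyme, EME1 as the non-catalytic and MUS81 as the catalytic subunit. EME1 was at 3.96, 4.82 and 4.12 CPM in NC, 5.46, 5.65 and 4.31 in OIM, and 17.5, 16.7 and 17.9 in bFGF, which is a log2 fold change of 1.76 (SE 0.11, adjusted p = 2.95e-11). MUS81 was at 11.2, 11.7 and 11.9 CPM in NC, 11.3, 9.47 and 9.70 in OIM, and 8.88, 10.2 and 10.8 in bFGF, with a log2 fold change against OIM of -0.03 (SE 0.099, adjusted p = 0.836). Its bFGF libraries overlapped those of OIM and lay below those of NC, where the log2 fold change was -0.22 (edgeR adjusted p = 0.0536). EME1 thus moved from 0.547 to 0.735 of the MUS81 level per kilobase in OIM to 2.01 to 2.44 in bFGF. Both genes overlap a neighbour on the other strand: 1891 of the 4019 exon bases of EME1 lie in LRRC59, which was at 231 CPM in OIM and 254 in bFGF, and 13.5% of those of MUS81 lie in EFEMP2, which was at 247 and 104 CPM. GEN1, a resolvase, was at 4.27, 3.42 and 5.06 CPM in NC, 3.93, 6.37 and 4.38 in OIM, and 17.55, 19.18 and 17.04 in bFGF, with no overlap (log2 fold change 1.87). SLX4, the scaffold that holds several nucleases, rose from 6.34 ± 0.206 to 10.8 ± 0.699 CPM (log2 fold change 0.76).

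Of the 7 Fanconi core genes measured, 5 were called higher, with a median log2 fold change of 1.41. FANCB was at 2.70, 3.27 and 2.01 CPM in NC, 2.79, 4.28 and 4.01 in OIM, and 14.1, 12.1 and 14.2 in bFGF, so that each bFGF library was well above the others (log2 fold change 1.86, SE 0.16, adjusted p = 2.83e-09). FANCA was at 4.39, 5.56 and 4.35 CPM in NC, 5.66, 7.91 and 6.32 in OIM, and 22.3, 20.6 and 24.0 in bFGF, again without overlap of bFGF with the rest (log2 fold change 1.75). FANCC rose from 3.29 ± 0.261 to 10.9 ± 1.06 CPM, FANCM, the DNA-binding translocase of the complex, from 9.51 ± 0.586 to 25.3 ± 0.928 CPM, and FANCL, its ubiquitin ligase, from 3.09 ± 0.271 to 7.40 ± 0.401 CPM. FANCG went from 13.8 ± 1.18 CPM in OIM to 18.8, 18.9 and 19.3 CPM in bFGF, and its log2 fold change of 0.46 passed on adjusted p (4.44e-05) but not on size, and reached 0.55 without OIM library 2. FANCF was at 4.74 ± 0.474 CPM in NC, 4.52 ± 0.802 in OIM and 3.73 ± 0.406 in bFGF, where the libraries overlapped those of OIM (log2 fold change -0.27, SE 0.16, edgeR adjusted p = 0.128) and lay below those of NC (log2 fold change -0.34, edgeR adjusted p = 0.0552).

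The targets of the core complex and the helicase that follows them rose. FANCD2 was at 29.5, 29.5 and 29.6 CPM in NC, 30.3, 40.3 and 29.9 in OIM, and 105, 107 and 106 in bFGF, with a log2 fold change of 1.66 (SE 0.078, adjusted p = 2.19e-13). Apart from OIM library 2, the NC and OIM libraries differed by less than 1 CPM. FANCI, its partner, was at 11.52, 9.88 and 10.90 CPM in NC, 10.94, 16.69 and 12.36 in OIM, and 50.53, 46.98 and 46.25 in bFGF, all bFGF libraries above the rest (log2 fold change 1.84). FANCI relative to FANCD2 per kilobase was 0.392 to 0.449 in OIM and 0.475 to 0.522 in bFGF, one of the smaller shifts among the pairs (1.14-fold). BRIP1, a helicase that binds BRCA1, rose from 9.12 ± 1.71 to 23.3 ± 1.25 CPM (log2 fold change 1.35).

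In damage signalling, the kinases that sense the damage and the kinases they activate differed in size of change. ATM, which responds to breaks, was at 105, 103 and 108 CPM in NC, 86.8, 100.3 and 90.4 in OIM, and 117, 116 and 119 in bFGF. The OIM libraries were the lowest and the bFGF libraries the highest, with log2 fold changes of 0.35 for bFGF against OIM (adjusted p = 1.99e-06) and -0.18 for OIM against NC (adjusted p = 0.0126), both under the fold limit. ATR, which responds to stalled replication, went from 34.9 ± 2.29 to 48.9 ± 0.964 CPM (log2 fold change 0.49, adjusted p = 1.20e-07). It was called at 0.56 without OIM library 2. CHEK1, the kinase that ATR activates, was at 4.92, 6.14 and 6.43 CPM in NC, 6.40, 7.57 and 6.11 in OIM, and 21.3, 20.2 and 23.5 in bFGF, a log2 fold change of 1.69 (SE 0.11, adjusted p = 3.20e-11). CHEK2, the kinase that ATM activates, rose from 10.2 ± 1.03 to 19.8 ± 0.348 CPM (log2 fold change 0.96). TP53BP1, which protects ends from trimming, went from 52.0 ± 3.75 to 62.5 ± 3.09 CPM (log2 fold change 0.27).

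In the OIM libraries the median level per kilobase of exon was 1.57 CPM for the 29 called genes and 4.49 CPM for the other 10, and in the bFGF libraries it was 4.71 and 5.81 CPM. The 2 sets of genes overlapped in OIM: RAD52 (1.63), MUS81 (2.05) and FANCF (2.30), not called, were below RBBP8 (8.38) and FANCD2 (6.48), which were called. The level per kilobase ranged from 0.565 (RAD51B) to 12.2 (RAD50) in OIM and from 0.871 (RAD51B) to 20.5 (FANCD2) in bFGF. RAD50 was thus the highest of the 39 genes in OIM and FANCD2 the highest in bFGF. Of the 10 genes not called, 6 had an adjusted p of at most 0.05 with a change under the fold limit (NBN, TOP3A, FANCG, ATM, ATR and TP53BP1), and 4 had a larger adjusted p (RAD52, RAD50, FANCF and MUS81). Of the 29 called genes, 17 share no exon bases with another annotated gene and 6 share more than 10% with a single neighbour (BRCA1, RBBP8, FANCA, FANCL, EME1 and SLX4). RAD51AP1 shares 6.42% with DYRK4 and 8.13% with C5H12orf4. Reads of these genes could be split with a neighbour.

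Against NC, bFGF gave a like number of calls. Of the 39 genes, 29 were called higher and 0 lower, where 18.9% of all genes tested were called higher and 20% lower, and the median log2 fold change was 1.59 (3.00-fold). With library totals the shares over all genes tested were 28.8% and 13.5%, and 31 of the 39 genes were higher and 0 lower. By adjusted p alone 33 were higher and 0 lower (34.5% and 35.7% of all genes tested), and the bFGF libraries all lay above the NC libraries in 33 genes and all below them in 3 (36.4% and 37.3%). Both comparisons use the same 3 bFGF libraries, so they are not independent. Side by side, EXO1 was at 2.70 against NC and 2.30 against OIM on the log2 scale, XRCC2 at 2.53 and 2.07, RMI2 at 2.43 and 2.03, FANCB at 2.34 and 1.86, BLM at 2.33 and 2.14, RAD54L at 2.25 and 2.07, FANCA at 2.22 and 1.75, and FANCI at 2.15 and 1.84. These were the 8 largest changes against NC. TOP3A was called against NC (0.60) and not against OIM, and RAD51B was called against OIM and not against NC.

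The comparison of OIM with NC asks whether the calcifying medium alone changed these genes. None of the 39 was called in either direction by edgeR (0 higher, 0 lower; DESeq2 also called 0), beside 1.49% of all genes tested called higher and 0.864% lower. At an unadjusted p under 0.05 there were 17 of the 39 genes, beside 3574 of the 13662 genes tested, and by adjusted p alone 2 were higher (BRCA2, log2 fold change 0.23, and FANCA, 0.48) and 2 were lower (RAD51B, -0.49, and ATM, -0.18), where 7.69% of all genes tested were higher and 5.87% lower. In BRCA2 and FANCA every OIM library was above every NC library, and in RAD51B and ATM every OIM library was below. The OIM libraries all lay above the NC libraries in 6 genes and all below them in 2 (14.5% and 14.2% of all genes tested). The median log2 fold change of the 39 genes was 0.18, and 0.032 without OIM library 2. Calls appeared when other libraries were left out: 6 genes were higher without OIM library 1 (BARD1, EXO1, FANCA, FANCB, RAD51AP1 and RMI2), 2 without OIM library 3, 2 without NC library 2 and 1 without NC library 3. The share of all genes tested that was called in these fits was not counted, so these counts have no background beside them. The values above 0 reached 0.48 for FANCA and FANCB and 0.47 for BARD1, and FANCB and BARD1 missed on adjusted p (0.0777 and 0.0593, edgeR).

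Other genes of the same pathways, 75 listed and 66 tested, were also mostly higher with bFGF than with OIM. Of the 66, 38 were called higher and 2 lower (17.7% and 18.4% of all genes tested), with a median log2 fold change of 0.64. The called genes with the largest changes were MND1 (2.13) and PSMC3IP (1.92), which help strand invasion, DNA2 (1.88), a nuclease of end trimming, and SFR1 (1.80), an accessory factor of strand exchange. The 2 that fell were SHLD2 (-0.74), of the shieldin complex that limits trimming, from 1.31 ± 0.429 to 0.779 ± 0.125 CPM, and ZSWIM7 (-0.53), a recombination cofactor, from 10.8 ± 1.38 to 7.47 ± 0.782 CPM. With library totals 45 of the 66 were called higher and 0 lower, beside 27.3% and 12.4% of all genes tested. Of the 66, only SFR1 was called in OIM against NC (0.55).

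Lists of other repair routes had smaller medians. For end joining, which seals breaks without a template, 2 of 12 genes were called higher, 1 lower, and the median log2 fold change was 0.17, beside the 17.7% and 18.4% of all genes tested called in each direction. For mismatch repair 3 of 6 were higher, 0 lower (median 0.62), and for base and nucleotide excision repair 13 of 31 were higher and 2 lower (median 0.35). With library totals, end joining had 4 higher and 1 lower (median 0.39), mismatch repair 5 and 0 (median 0.84), and excision repair 16 and 1 (median 0.57). With that scaling, 27.3% of all genes tested were called higher and 12.4% lower, and their median was 0.22. The DNA replication list had 37 of 38 genes higher (median 1.56) and the mitosis list 30 of 30 (median 1.74), beside the median of 1.35 of the recombination and Fanconi genes. Of 22 factors and targets of the E2F and DREAM cell cycle regulators, 14 were higher and 0 lower (median 1.41), among them E2F8 (2.14), E2F1 (1.95), MYBL2 (1.94) and FOXM1 (1.74). Of 19 p53 targets, 0 were higher and 7 were lower (median -0.20), with SESN1 at -1.86, PHLDA3 at -0.93, BBC3 at -0.83 and CDKN1A, the cell cycle inhibitor p21, at -0.74; with library totals 3 were higher and 5 lower, and the median was 0.018. In bulk RNA, a larger share of cells in S phase and more RNA per cell cannot be told apart.

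**Figure D4:**
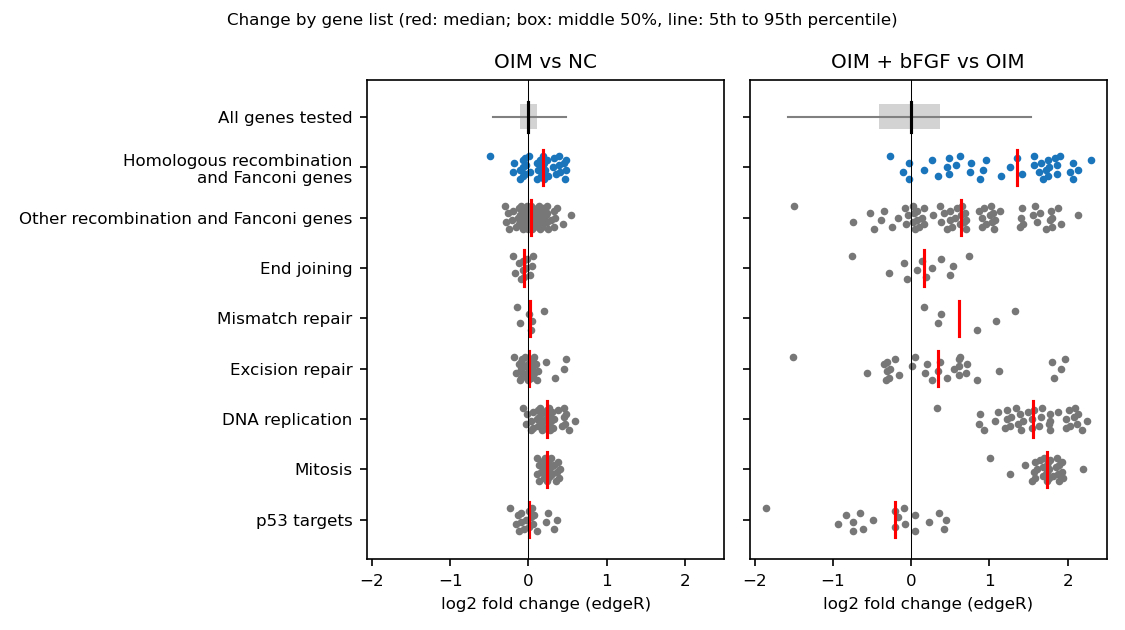
Log2 fold change (x axis) of OIM against NC (left) and of OIM with bFGF against OIM (right) by gene list, 1 point per gene and a red line at the median; for all genes tested, the box holds the middle 50% and the line runs from the 5th to the 95th percentile. On the right the medians of the repair and cell cycle lists run from 0.17 for end joining to 1.74 for mitosis, with the 39 genes at 1.35, the p53 targets have a median of -0.20 (0.018 with library totals), and on the left the 39 genes have a median of 0.18.

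Circular RNAs, made when a downstream exon end is joined back to an upstream one, were counted separately and matched to the genes by coordinates. There were 26 at 13 of the 39 genes, 21 of them with both ends exactly on annotated exon ends, and 19 were seen in 1 library only. Their reads summed to 74 in NC, 69 in OIM and 84 in bFGF, which is 0.271%, 0.258% and 0.448% of all circular RNA reads. By library they were 24, 30 and 20 in NC, 29, 25 and 15 in OIM, and 42, 23 and 19 in bFGF, so the groups overlapped. Circular RNA reads of all genes were also fewer with bFGF, at 6048 to 6394 a library, against 8340 to 10029 in NC and 8051 to 9906 in OIM. One was found in all 9 libraries, a 7-exon circle of FANCL (chr3:83349428-83384802, plus strand, Sscrofa11.1). Its joining point is shown because these letters occur only in the circle's order of exons; lower case is the end of the last exon and capitals are the start of the first.
FANCL circle: tcctggacaccacagGGAAGAGATTTCCAC

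The FANCL circle had 11, 13 and 11 reads in the NC libraries, 16, 17 and 2 in OIM, and 15, 7 and 10 in bFGF. The groups overlapped and summed to 35, 35 and 32 reads. These reads were not scaled to the smaller number of circular RNA reads in the bFGF libraries, 6048 to 6394 against 8051 to 9906 in OIM. The level of the FANCL gene was 2.48, 2.90 and 2.01 CPM in NC, 3.39, 3.01 and 2.87 in OIM, and 7.61, 6.94 and 7.66 in bFGF, so the gene's reads rose with bFGF. The next most abundant circle, at ATM (chr9:36698685-36715744, plus strand), had 4, 5 and 7 reads in NC, 5, 0 and 0 in OIM, and 7, 2 and 2 in bFGF. A circle of RAD54B (chr4:42327946-42361848) had 4, 4 and 0 reads in the bFGF libraries and 0 in the 6 others, where a count of 0 allows up to 3 reads a library. Differences between groups in these circles were not tested.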

How the data were processed

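Per the labels, RNA was extracted from PVIC cultures, ribosomal RNA was removed with a stranded total RNA kit and paired-end reads were sequenced, whereas the study's methods name a poly-A selection kit. The submitters' processing notes list Trimmomatic, HISAT2, StringTie and Sscrofa11.1, and the methods name Cutadapt and STAR. The counting program and strand are not given in the sources used here. The deposited values are estimated counts, not normalized by the authors, whole for 19535 genes and 6179 circular RNAs and partly fractional for 9888 non-coding transcripts (not analysed here); 19 unnamed columns were not used. Some gene symbols had turned into dates. No step removed such rows, and none was matched to a listed gene.

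Gene counts, whole as deposited, were filtered by filterByExpr (13662 genes kept) and TMM-normalized. They were fitted in edgeR 4.0.16 (R 4.3.3) with the quasi-likelihood model on 3 groups, with 6 residual degrees of freedom. TMM factors were 0.937 to 0.967 in NC and OIM and 1.10 to 1.11 in bFGF. The p-values were adjusted over all genes tested by the method of Benjamini and Hochberg, and the SE is the log2 fold change divided by the square root of F. CPM used TMM-scaled library sizes and was divided by RefSeq union exon length only where stated as per kilobase. The coefficient of variation between libraries shared by all genes was 0.0602, and group means are given ± SD (n = 3). Replicate libraries differed by more than sampling noise, so none was counted as a duplicate. The code was tested on simulated data.

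The members and lists were chosen with earlier results of these data known. All members are named, with library values for the 8 called members of largest change per comparison and those on which a role group turns, and of other lists at most 4 called genes, besides single genes named as exceptions. Alternatives were DESeq2 1.42.0, other scalings, filters and fold limits, the 2 groups alone, a replicate block and leaving out each library.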

Additional observations from a re-analysis of the deposited data

How the results depend on the processing

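The calls with bFGF varied little. Against OIM the number of the 39 genes called higher was 28 (a fold of at least 1.5, which drops RAD51D) to 35 (adjusted p alone), 33 with library totals in place of TMM, and 29 to 32 when a library was left out. Against NC it was 29 to 33, with 31 by library totals and 29 to 30 when a library was left out. The count of genes called lower was 0 under every alternative run for both comparisons, and no call among the 39 genes reversed its direction. With library totals the median of the p53 targets, bFGF against OIM, changed sign from -0.20 to 0.018.

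Library totals alone moved the median log2 fold change of the 39 genes to 1.57 against OIM and 1.81 against NC, by construction, since the median of all genes tested shifted by 0.22 with it (bFGF against OIM). Leaving out a library gave medians of 1.33 to 1.48 against OIM, the highest without OIM library 2, 1.55 to 1.63 against NC, and 0.032 to 0.25 for OIM against NC, the lowest without OIM library 2. In OIM against NC, 2 genes were called higher and 2 lower by adjusted p alone. Leaving out a library gave 0 to 6 higher, the 6 without OIM library 1 (BARD1, EXO1, FANCA, FANCB, RAD51AP1 and RMI2), and 0 to 1 lower (RAD51B). Without OIM library 2 there were 0 higher and 1 lower. For the fits with a library left out, in all comparisons, the share of all genes tested that was called was not counted.

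Replicate numbers did not pair the libraries: deviations from the group means correlated at -0.052 to 0.039 between libraries of the same number. With a replicate block, 29 genes were called higher against OIM, 29 against NC and 0 in OIM against NC, with medians of 1.36, 1.59 and 0.18. All 39 genes had at least 77 reads in each library. Depth limits the circular RNAs and the low marker genes, and 5 of 8 leukocyte markers could be tested.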
